A study of Homo sapiens with 28 samples.

Results

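A total of 1837 regions of chromatin-associated RNA carried a peak of N6-methyladenosine (m6A) in all 12 libraries of the leukaemia lines K562 and NB4 and in neither library of the hepatoma line HepG2. They were chosen by measured values: overlapping peaks of the 14 lists were merged on each strand of chromosomes 1 to 22 and X, and a merged region was kept when it had a peak in every leukaemia library and none in HepG2. This left 1837 of 86263 merged regions, and 10265 regions had a peak in all 12 leukaemia libraries whatever HepG2 held. The difference between leukaemia and HepG2 is therefore what selected these regions and is described here without a test. Each region was placed by its best summit, the peak summit with the highest -log10 q of any library, on GENCODE genes of the human genome build hg38.

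The libraries came from 3 established human cell lines. HepG2 WT (2 libraries) and K562 WT (2 libraries) were unmodified cells, HepG2 from a hepatoma and K562 from a chronic myelogenous leukaemia. K562 Control and K562 KD (2 libraries each) carried, after lentiviral transduction, a non-targeting short hairpin RNA or a hairpin against the RNA-binding protein RBFOX2. NB4, an acute promyelocytic leukaemia line, was measured as NB4 Control and NB4 KD (3 libraries each), with no unmodified NB4 cells in the lists analysed here. The labels give NB4 KD as RBFOX2 knockdown. For this the study's methods describe lentiviral hairpins against RBFOX2 and a non-targeting control hairpin. HepG2 stands for non-leukaemic cells through 1 line only, so a region absent from HepG2 may be present in other tissues. The study's methods speak of biological replicates, and neither they nor the labels say whether these libraries came from separate cultures, so p-values measure the spread between these libraries, part of which may be technical.

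m6A is placed on nascent and mature transcripts by a methyltransferase complex built around METTL3 and METTL14, mostly at the short sequence DRACH, of which GGACU is the best known form. Reader proteins then bind the mark and change how long the RNA lasts or how the chromatin beneath it behaves. In blood cells and leukaemia the writers, readers and erasers of m6A are known to act on self-renewal and differentiation, and the study asked whether RBFOX2 is one of the proteins that read this mark on chromatin-bound RNA.

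The sequences at a few summits show what these peaks sit on. The first set holds the 3 summits of NSD1, of which those in exons 2 and 5 belonged to the 12 strongest regions. All 3 were read on the + strand from chr5:177135576-177135656, chr5:177211737-177211817 and chr5:177295337-177295417 of hg38. Capitals mark the DRACH pentamer nearest the summit, with GGACT taken first (T is U in RNA) where the 75 bases to either side of the summit held one.

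NSD1 exon 2: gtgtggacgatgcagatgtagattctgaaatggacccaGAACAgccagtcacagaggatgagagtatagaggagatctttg
NSD1 exon 5: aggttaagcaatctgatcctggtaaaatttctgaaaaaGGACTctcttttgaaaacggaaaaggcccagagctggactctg
NSD1 exon 23: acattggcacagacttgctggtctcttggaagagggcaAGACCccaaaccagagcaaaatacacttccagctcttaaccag

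Only the exon 5 summit of NSD1 held GGACT within 75 bases. The second set holds coding summits of blood cell genes and 1 intron of CBFA2T3, shown because GGACT lay within the summit window of each. They were read at chr16:29664541-29664621 on the + strand (SPN), chr5:39201999-39202079 on the - strand (FYB1), chr7:106869416-106869496 on the + strand (PIK3CG) and chr16:88890119-88890199 on the - strand (CBFA2T3).

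SPN exon 2: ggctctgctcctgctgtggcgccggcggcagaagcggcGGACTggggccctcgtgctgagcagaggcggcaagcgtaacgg
FYB1 exon 2: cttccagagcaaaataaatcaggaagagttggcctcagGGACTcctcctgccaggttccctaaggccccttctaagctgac
PIK3CG exon 2: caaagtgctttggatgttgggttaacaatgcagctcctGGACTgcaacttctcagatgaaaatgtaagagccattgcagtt
CBFA2T3 intron 5: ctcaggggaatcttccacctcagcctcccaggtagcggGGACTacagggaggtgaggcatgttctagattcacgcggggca

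The third set holds 21 bases of 3′ UTR around the pentamer, shown because the summits lay in the 3′ UTR of blood cell genes. The places were chr1:202147967-202147987 on the - strand (PTPN7), chr4:48136285-48136305 on the - strand (TEC), chr11:47355111-47355131 on the - strand (SPI1) and chr19:51239762-51239782 on the + strand (CD33).

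PTPN7 exon 10: aagaacaaGGACTctggttac
TEC exon 18: gcctggttGGACTtgggttcc
SPI1 exon 5: cagaggcaGGACTgtggcggg
CD33 exon 7: tggagattTAACAccccacag

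The CD33 summit had no GGACT within 75 bases. The last sequence is that of intron 3 of RGS10 (chr10:119519600-119519680, - strand), shown because its short repeated unit holds the pentamer AGACA over and over and because the region differed most between K562 groups.

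RGS10 intron 3: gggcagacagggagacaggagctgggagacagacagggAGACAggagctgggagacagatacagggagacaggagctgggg

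The lists bear on how the absence from HepG2 can be read. HepG2 held 22635 and 27358 peaks against 35577 to 44043 in K562 and 29511 to 39707 in NB4, and the median fold of a peak over its local background was 3.84 and 4.03 in HepG2, 5.68 to 8.01 in K562 and 5.08 to 6.14 in NB4. Depth, recovered from the peak statistics, was 27.6 and 31.4 M reads in HepG2, 12.6 to 25.6 M in K562 and 10.8 to 21.9 M in NB4. The recovery gave whole pileups at 100% of summits in 11 libraries and at 4.32% in HepG2 WT 1, at 3.12% in the other HepG2 library and at 3.09% in NB4 Control 3, so the depths of those 3 are approximate. Lineage markers followed the labels: of 18 hepatocyte genes, 9 to 13 held a summit in HepG2, 0 to 4 in K562 and none in NB4. Of 16 erythroid genes, 10 to 14 held one in K562, 2 to 3 in NB4 and 1 to 2 in HepG2, and of 13 promyelocyte genes, 9 to 10 held one in NB4, 3 to 6 in K562 and 2 in HepG2.

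The regions without a HepG2 peak were weaker on average than those present everywhere. Their median percentile of -log10 q, taken within each library's own list, lay between 58.9 and 66.4 in the 12 leukaemia libraries, against 77.1 to 86.1 for the 7696 regions present in all 14. When the 10265 regions in all 12 leukaemia libraries were ordered by their median percentile, 42.6% of the weakest decile lacked a HepG2 peak, 17.9% of decile 5 and 3.60% of the strongest decile. A total of 123 regions (6.70%) had a median percentile over 90, against 29.8% of the regions in all 14 libraries. The part of peak strength and of the lower folds of the HepG2 lists in the absence was not tested.

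**Figure D1:**
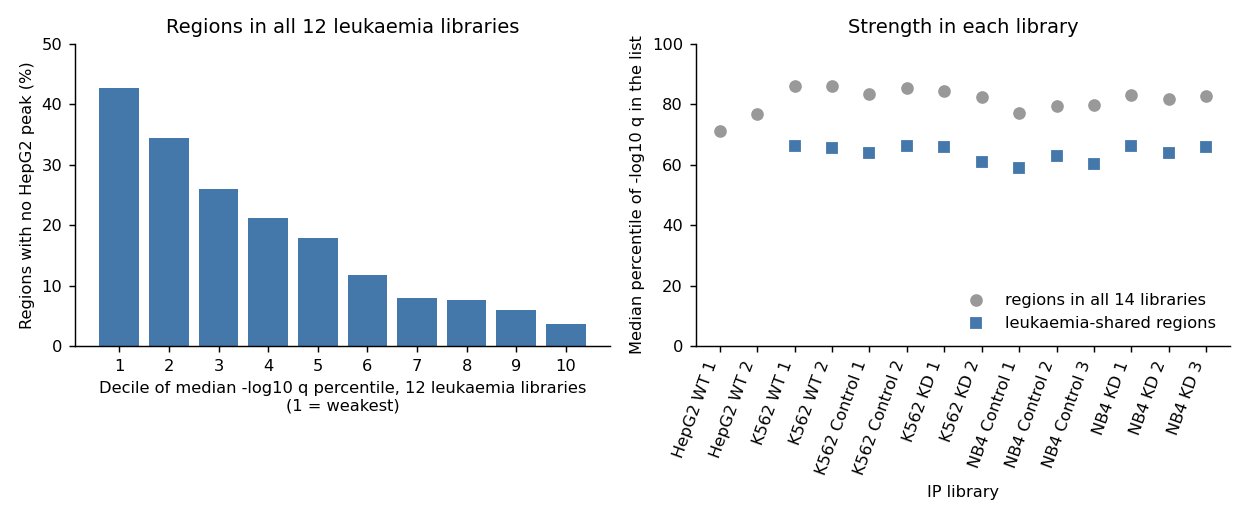
Left, percent of regions with no HepG2 peak (bars) in each decile of the 10265 regions present in all 12 leukaemia libraries, ordered by median percentile of -log10 q (1 is the weakest). Right, median percentile in each IP library for the leukaemia-shared regions without HepG2 peak (squares) and for regions in all 14 libraries (circles); the bars fall from 42.6% to 3.60%, and the squares lie below the circles in each of the 12 leukaemia libraries.

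The edges of the selection show how sharp it is. Another 732 regions had a peak in all 12 leukaemia libraries and in 1 HepG2 library, the strongest of them in the 3′ UTR of MMP17 and in coding exon 3 of NFE2, with median leukaemia percentiles of 99.2 and 99.0. Their single HepG2 peaks ranked low, at percentile 29.6 in HepG2 WT 1 for MMP17 and 22.7 in HepG2 WT 2 for NFE2. A further 836 regions had a peak in 11 of 12 leukaemia libraries and none in HepG2, led by MAP3K21 (96.9, no peak in K562 WT 1) and CPXM1 (96.6, no peak in K562 Control 2). Both were strong in NB4 only. MAP3K21 stood at 26.7 to 53.5 in the K562 libraries with a peak and at 96.9 to 99.2 in NB4, and CPXM1 at 54.7 to 64.2 and 96.6 to 99.3. The lowest members lay in SREBF2 (13.3) and in the last exon of EOLA2 (14.2). That of SREBF2 was intronic in the canonical transcript and exonic in another. Of the 1837 regions, 70 (3.81%) had a HepG2 peak within 500 bases on the same strand.

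The leukaemia-shared regions lay in introns more often, and in exons less often, than regions present everywhere. Introns held 25.5% of them (469 regions, Wilson 95% interval 23.6 to 27.6%) against 12.3% of the regions in all 14 libraries, while 35.0% of the 3969 regions seen in both HepG2 and no leukaemia library were intronic. Promoters (1000 bases upstream to 100 bases downstream of a transcript start) held 21.2% against 23.2%, transcript ends 22.6% against 29.6%, other exons 26.8% against 33.3% and intergenic sequence 3.76% against 1.59%. A coding exon of the canonical transcript, on the same strand, lay beneath 17.7% of the 1837 regions and beneath 39.3% of those in all 14 libraries. Long noncoding RNA genes took 14.97% against 8.63%, and pseudogenes 7.19% against 3.11%. Where a pseudogene has near-identical copies, the place given by the aligner is uncertain. Regions of the selection were 640 bases wide at the median and those in all 14 libraries 923.

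**Figure D2:**
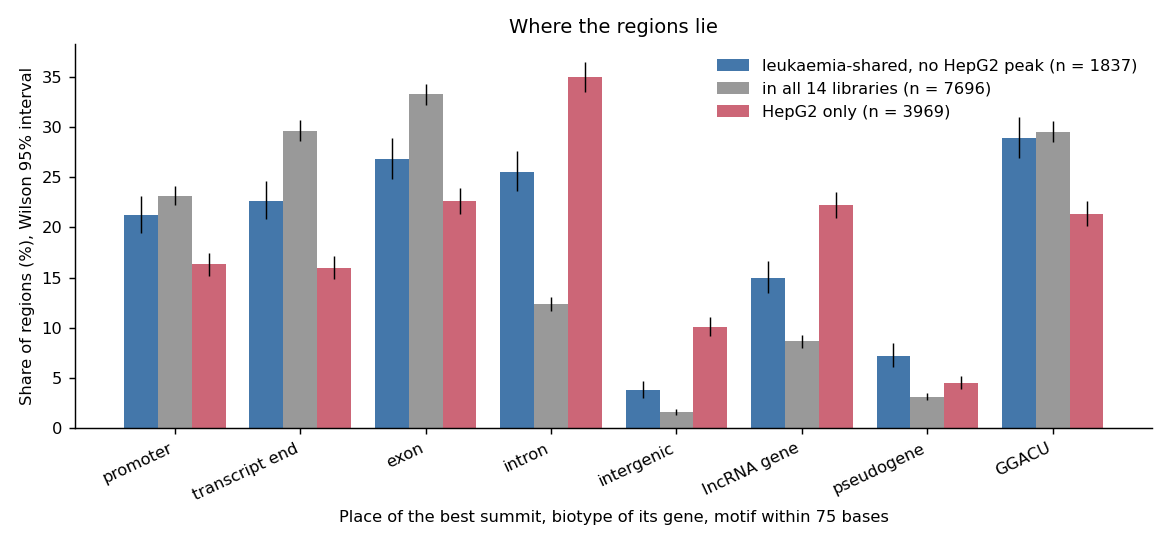
Share of regions (bars, with Wilson 95% intervals) by place of the best summit, by biotype of its gene and by presence of GGACU within 75 bases of the summit, for the 1837 leukaemia-shared regions, the 7696 regions in all 14 libraries and the 3969 HepG2-only regions. The intron share of the leukaemia-shared regions, 25.5%, lies between the 12.3% and 35.0% of the other sets, and their GGACU share, 28.9%, is near the 29.5% of regions in all 14 libraries.

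The m6A motif was as frequent at these summits as at constitutive ones. GGACU, searched on the strand of the peak within 75 bases of the summit, was present at 28.9% of the regions (531 of 1837, interval 26.9 to 31.0%), at 29.5% of those in all 14 libraries, at 21.3% of the HepG2-only regions and at 23.3% of all merged regions. In windows of the same length 300 bases to either side it was present in 13.6%. DRACH (D is any base but C, R a purine and H any base but G) was found at 98.1% of summits and in 91.4% of flanks, and at 95.5% of all merged regions. AGAUG, a pentamer that the study ties to RBFOX2, was present at 21.8% of summits against 22.8% of all merged regions, and UGCAUG, the canonical motif of RBFOX2, at 4.14% against 3.55%.

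The regions belonged to 1380 genes, of which 256 held more than 1. Of the 1192 genes with a region on their own strand, 591 (49.6%) had no HepG2 summit anywhere on that strand from 1000 bases before the gene to 1000 bases after it, and 543 (45.6%) had one in both HepG2 libraries. Among protein-coding genes 418 of 949 (44.05%) had none, and among long noncoding RNA genes 89 of 148 (60.1%). The collection thus mixes genes without any HepG2 peak and genes that were marked in HepG2 at another place. Peak lists carry no RNA level, and in bulk libraries fewer cells that make a transcript, less of the transcript per cell and a smaller methylated share cannot be told apart. The input libraries that could bear on this are not analysed here.

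Genes of blood cell signalling, receptors and adaptors were among those with these regions. Of 32 such genes with a sense region in all 12 leukaemia libraries, 24 had at least 1 without a HepG2 peak, against 949 of 4945 (19.2%) of all protein-coding genes, and 21 of the 24 had no HepG2 summit anywhere in the gene. The 24 were ARHGAP15, BCL2, CBL, CD33, CD53, CD84, DOCK8, FYB1, IL10RB, LCP1, PIK3CG, PRKCB, PTPN7, RAC2, RHOH, SELPLG, SH2B3, SOCS2, SPN, SYK, TEC, TNFRSF1B, TYK2 and VAV1. The gene lists were drawn up with earlier results of these data known, so the counts are descriptions of the list and not independent evidence.

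SPN, the gene of the leukocyte surface sialoprotein CD43, held the strongest of them in its single coding exon, exon 2 of 2. The fold of the SPN summit was 15.4 and 13.4 in K562 WT, 39.2 and 27.6 in K562 Control, 33.2 and 32.05 in K562 KD, 7.58, 6.62 and 5.18 in NB4 Control and 9.43, 8.27 and 15.3 in NB4 KD. The highest NB4 value thus lay between the pair of K562 WT values, and the hairpin libraries of K562 lay above all others. A peak also lay on the opposite strand of the same exon, at a median percentile of 91.9. Whether this peak holds antisense RNA or sense reads assigned to the wrong strand was not tested.

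TEC, a tyrosine kinase of haematopoietic cells, was marked in its last exon, with a fold of 26.9 at the lowest, 36.4 at the median and 43.8 at the highest of the 6 K562 libraries and 12.5, 14.5 and 18.0 in NB4. PTPN7, a tyrosine phosphatase of lymphoid and myeloid cells, had 16.4, 19.6 and 24.3 in K562 and 6.13, 9.14 and 14.2 in NB4 in its last exon. For both genes the 6 K562 libraries lay above the 6 NB4 libraries, as they did at 390 of the 1837 regions. The reverse held at 30. Fold ran higher in K562 over the whole selection, with library medians of 7.36 to 10.4 against 6.41 to 7.12 in NB4. A gap in fold between the lines, here and below, is therefore not particular to the gene named. FYB1, an adaptor that couples receptors to integrins, had 12.04, 24.2 and 32.5 in K562 and 8.62, 12.1 and 17.2 in NB4, with overlap between the lines. PIK3CG, the catalytic subunit of phosphoinositide 3-kinase gamma, ranged from 10.54 to 32.4 in K562 and from 5.44 to 16.4 in NB4, again with overlap.

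**Figure D3:**
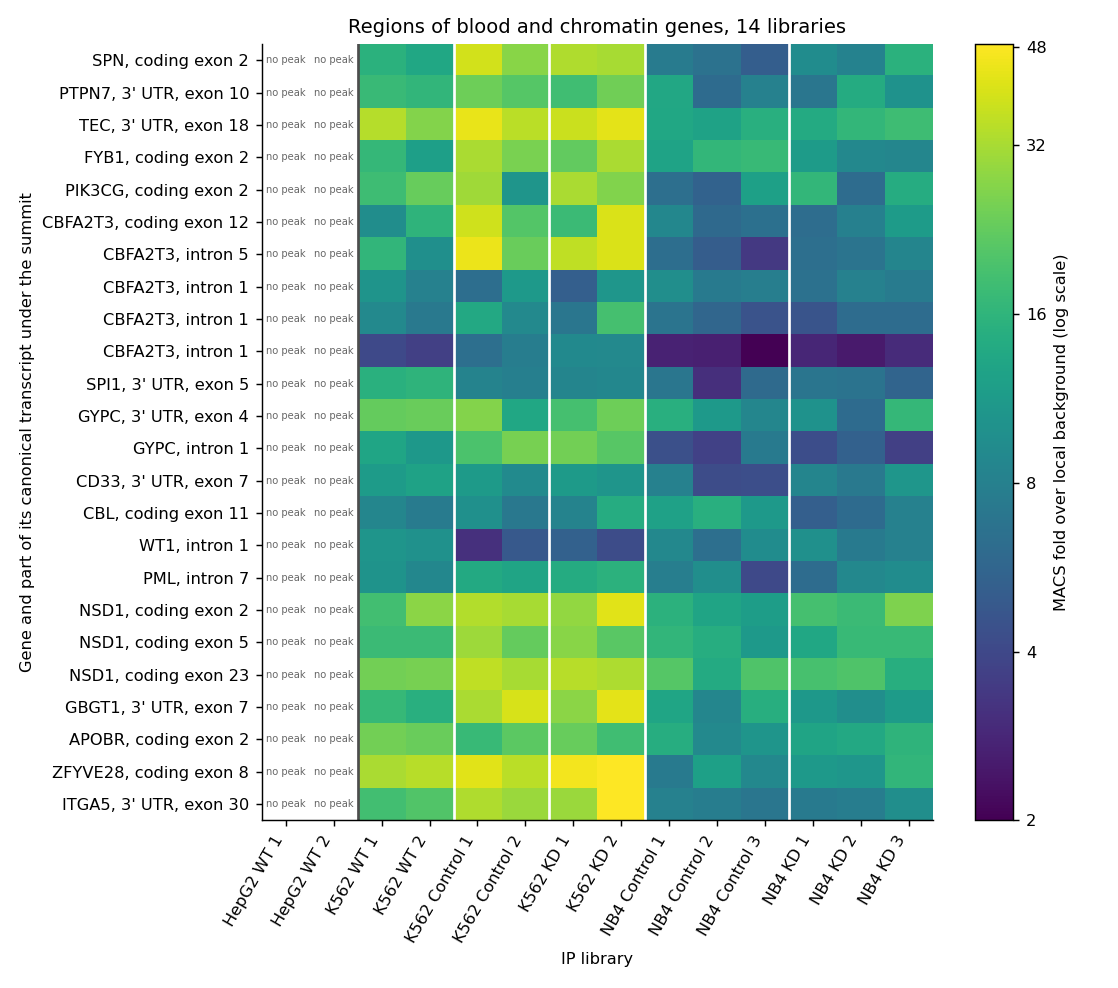
Fold of the best peak over its local background (colour, log scale) for 24 regions named in the text, with the gene and the part of its canonical transcript in rows and the 14 IP libraries in columns; white cells hold no peak. HepG2 has no peak in any row, as the selection requires, and most rows are brighter in K562 than in NB4, with WT1 intron 1 among the exceptions. Over the whole selection the median fold was higher in K562 at 1441 of 1837 regions.

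Of 22 haematopoietic transcription factor genes with a sense region in all 12 leukaemia libraries, 10 (45.5%) had 1 without a HepG2 peak: CBFA2T3, ELF4, LMO2, LYL1, MYB, NFE2, RUNX1, SPI1, STAT5B and ZFPM1. Only 5 of the 10 had no HepG2 summit in the gene. SPI1 encodes PU.1, the factor that sets the myeloid fate. The fold in the last exon of SPI1 was 15.1 and 15.97 in K562 WT, 7.97 to 8.72 in the 4 hairpin libraries of K562 and 3.08 to 6.98 in NB4, with no overlap between the 2 lines. By percentile of -log10 q within each list the order differed. SPI1 then stood at 87.3 and 88.6 in K562 WT, 50.3 to 54.9 in the K562 hairpin libraries and 56.0 to 80.4 in NB4.

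CBFA2T3, a corepressor of the ETO family that acts with the erythroid and stem cell factors of the TAL1 complex, held 8 regions along the gene. They spanned chr16:88875339-88977165 (- strand), with 1 in the 3′ UTR, 2 in coding exons (exons 1 and 12) and 5 in introns, and the gene had no HepG2 summit. The strongest lay in coding exon 12 and in intron 5, with median percentiles of 97.1 and 96.0, and the weakest in exon 1 at 60.4. In intron 5 of CBFA2T3 the fold was 16.4 and 9.75 in K562 WT, 44.4 and 23.4 in K562 Control, 35.8 and 40.4 in K562 KD, 6.34, 5.14 and 3.38 in NB4 Control and 6.43, 6.83 and 8.49 in NB4 KD. All K562 libraries lay above all NB4 libraries.

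Of 22 erythroid and K562 markers, 5 had a sense region in all 12 leukaemia libraries, and 2 of these held one without a HepG2 peak. This list is not the list of 16 erythroid genes counted earlier. Among all protein-coding genes 949 of 4945 held one, and 5 genes are too few to compare with that share. GYPC (glycophorin C of the red cell membrane) held 2 of the regions and TFRC (the transferrin receptor) held 1. The 3′ UTR region of GYPC had folds of 13.4, 23.04 and 26.9 (lowest, median, highest) in K562 and 6.06, 10.7 and 16.6 in NB4, with overlap. The other GYPC region lay in intron 1 of the canonical transcript and in an exon of another. It had 10.98, 20.4 and 25.4 in K562 and 3.65, 4.30 and 7.31 in NB4, without overlap. TFRC was weak in both lines, from 2.06 to 3.42 in K562 and from 2.44 to 3.96 in NB4. Of 20 granule genes and promyelocyte markers, 2 had a sense region in all 12 leukaemia libraries, and 1, CD33, held one without a HepG2 peak. CD33, the myeloid sialic acid receptor, had 9.21, 11.4 and 12.5 in K562 and 4.17, 7.65 and 10.7 in NB4. SPI1, described above, was among the promyelocyte genes counted earlier and also held a region. None of 30 genes of hepatocyte regulators and secreted proteins had a sense region in all 12 leukaemia libraries, so none could hold one.

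The lists of leukaemia genes, chromatin regulators, zinc finger genes, the m6A machinery and TGF-beta signalling stood between 0.0 and 33.3%. Of 27 genes recurrently altered in leukaemia, 9 (33.3%) held a region without a HepG2 peak: AFF1, BCORL1, CBL, ELL, NUP98, PML, RUNX1, SMC1A and WT1. Only 3 of the 9 had no HepG2 summit in the gene, and AFF1, a member of the super elongation complex, had 7 and 8 HepG2 peaks at other places. Of 41 chromatin regulators, 7 (17.1%) held one, and of 306 zinc finger genes with symbols starting in ZNF, 49 (16.01%). Of 19 genes of the m6A machinery 1 (5.26%) did, VIRMA, a subunit of the methyltransferase complex, in exon 13 at a median percentile of 27.8. None of 15 genes of TGF-beta signalling did. The HOX genes HOXC8 and HOXC9 held 1 region each and were the only HOX genes with a region in all 12 leukaemia libraries. Long intergenic noncoding RNA genes with symbols starting in LINC stood at 18 of 41 (43.9%).

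**Figure D4:**
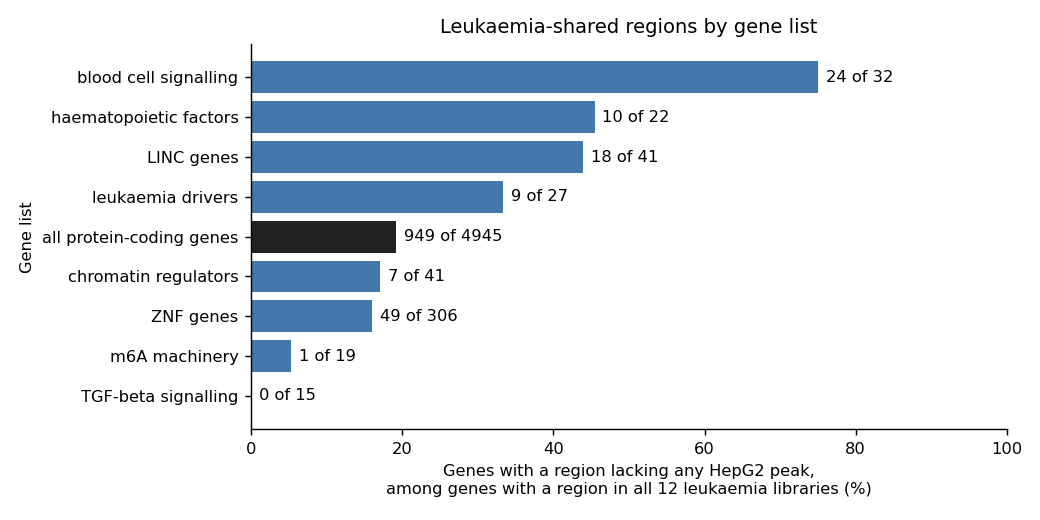
Percent of genes with a sense region that lacks any HepG2 peak, among genes with a sense region in all 12 leukaemia libraries, for each gene list (bars, with the counts beside them) and for all protein-coding genes (black bar). Blood cell signalling genes stand at 24 of 32 and all protein-coding genes at 949 of 4945, while no gene of TGF-beta signalling is counted.

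The strongest regions belonged to genes without any HepG2 summit on the strand of the gene in 11 of the top 12. The first was in the last exon of GBGT1, a glycolipid transferase gene (chr9:133153071-133154779, - strand), at a median percentile of 99.5. The GBGT1 fold was 15.03, 30.2 and 42.7 (lowest, median, highest) in K562 and 8.67, 11.2 and 14.8 in NB4, with no overlap between the lines. SEPTIN9, a cytoskeletal GTPase, was the exception: its region lay at an internal transcript start, in intron 2 of the canonical transcript, while HepG2 WT 1 and 2 had 4 and 8 summits elsewhere in the gene. In SEPTIN9 the fold ranged from 20.1 to 30.1 in K562 and from 6.74 to 17.3 in NB4. A noncoding exon of the pseudogene FAM86GP (antisense strand), APOBR (a lipoprotein receptor of macrophages), ZFYVE28, ANKRD33B, ITGA5 (integrin alpha 5) and the start of MIR3187 (antisense strand) completed the top 12 with SPN, PTPN7 and NSD1. For FAM86GP and MIR3187 the count of HepG2 summits in the gene did not cover the strand of the region. ANKRD33B stood at percentiles of 98.0 and 98.7 in K562 WT and 98.4 to 99.9 in NB4, but at 40.6 to 61.7 in the K562 hairpin libraries.

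NSD1, a methyltransferase of histone H3 lysine 36 that is a fusion partner in some leukaemias, held 3 regions, in coding exons 2, 5 and 23 of 23, and had no HepG2 summit. In NSD1 exon 2 the fold was 18.5 and 27.8 in K562 WT, 33.7 and 31.8 in K562 Control, 28.8 and 41.8 in K562 KD, 15.6, 12.8 and 11.8 in NB4 Control and 19.0, 17.6 and 26.2 in NB4 KD. The highest NB4 value exceeded the lowest K562 value. Exon 5 ranged from 17.5 to 30.5 in K562 and from 11.04 to 17.2 in NB4, and exon 23 from 24.5 to 35.6 and from 14.02 to 21.03, both without overlap between the lines. Other chromatin regulators with strong regions, JARID2 (a partner of PRC2, 89.5) and KMT2E (82.2), were marked in their first exon and also had HepG2 summits, 2 and 4 in JARID2 and 4 and 5 in KMT2E.

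A few genes held many regions. LINC01667, a transcribed pseudogene near the centromere of chromosome 21, held 11 in chr21:9790114-9839019, where copies elsewhere in the genome make the place uncertain. CCDC26, a long noncoding RNA gene of chromosome 8, held 10, CBFA2T3 8, and ZFYVE28, CCDC136 and SFMBT2 6 each. None of these 6 genes had a HepG2 summit. The regions of CCDC26 spread over introns and alternative transcript ends, with median percentiles from 47.8 to 90.2, and those of ZFYVE28 from 57.2 to 98.7. Of the 1380 genes, 1124 held 1 region.

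RBFOX2 knockdown left most of these regions without a detectable change in fold. The log2 fold of each of the 10265 regions in all 12 leukaemia libraries was centred on the median of its library and fitted with limma in 5 groups, and 2-sided moderated tests were adjusted over all 10265 by Benjamini-Hochberg. In K562 0 regions were called higher (0.0% of all tested) and 0 lower (0.0%). At an unadjusted p under 0.05, 82 regions of the selection (4.46%) passed against 3.6% of all tested, and the percentile of -log10 q as the measure also called none of them in K562. For the mean of both lines, 0 were called higher (0.0%) and 0 lower (0.0%), with 201 (10.9%) at an unadjusted p under 0.05 against 10.1% of all tested. For the difference between the lines, 0 were called higher (0.0%) and 0 lower (0.0%), with 188 (10.2%) against 8.75%. The percentile measure called 8 higher (all tested, 0.526%) and 2 lower (0.107%) for the mean, and 8 lower (0.487%) for the difference.

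In NB4, 7 regions were called higher in KD than in Control (0.381%, against 0.507% of all tested) and 15 lower (0.817%, against 0.565%). At an unadjusted p under 0.05 in NB4, 353 regions of the selection (19.2%) passed, against 1882 of the 10265 tested. The median log2 change was -0.05 over the regions of the selection and 0.00 over all tested. The direction of the calls depended on the scale: without centring 1 was higher (all tested, 0.224%) and 3 were lower (0.0779%), and with the percentile of -log10 q 113 were higher (6.0% of all tested) and 36 lower (1.42%). Of the 22 calls, 15 were also called, in the same direction, by the percentile measure and 4 without centring. With K562 KD 1 or K562 KD 2 left out, which carry part of the estimate of the spread, 2 regions were called (0.185% of all tested), both among the 22. Without NB4 Control 1, 2 were called (0.195%), 1 of them among the 22, and without NB4 Control 2, 4 were called (0.321%), 3 of them among the 22. Without NB4 KD 1, 5 were called (0.312%), 3 of them among the 22, without NB4 KD 2, 2 were called (0.175%), 0 of them among the 22, and without NB4 KD 3, 4 were called (0.273%), 2 of them among the 22. Without NB4 Control 3, 36 were called (1.6%), with 19 of the 22 among them. The NB4 KD libraries were deeper than NB4 Control, 16.8 to 21.9 against 10.8 to 16.1 M recovered reads, and the part of depth in these calls was not tested.

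The largest fall was in the last exon of LINC02985, a long noncoding RNA. Its fold was 10.3, 6.96 and 10.52 in NB4 Control and 3.89, 3.15 and 3.89 in NB4 KD, without overlap, a log2 change of -1.36 ± 0.21 (SE, n = 3 and 3, limma adjusted p = 0.0193). VSIR, the immune checkpoint receptor VISTA, had 15.9, 17.2 and 11.5 in NB4 Control and 7.38, 5.47 and 6.60 in NB4 KD in its 3′ UTR (log2 change -1.21 ± 0.20 SE, limma adjusted p = 0.0202). In K562 the VSIR fold was 15.9 and 12.9 in Control and 17.5 and 16.6 in KD, and its difference between the lines was not called. EIF1AD fell by 1.28 on the log2 scale, C13orf46 by 1.201 and a region of LINC01667 by 1.16. FZD7, a Wnt receptor, fell by 0.92.

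The 7 regions that rose in NB4 KD comprised 2 at promoters, 2 at transcript ends, 2 in introns and 1 intergenic. TRIB2, a pseudokinase known as a leukaemia oncogene, was marked in its 5′ UTR, with folds of 5.90, 5.21 and 5.26 in NB4 Control and 9.47, 11.8 and 14.2 in NB4 KD, without overlap (log2 change 1.07 ± 0.20 SE, limma adjusted p = 0.0319). EOLA2-DT, a divergent noncoding transcript, had 9.75, 7.03 and 9.32 in Control and 20.3, 19.1 and 18.6 in KD (1.14 ± 0.22 SE, limma adjusted p = 0.0395). The other 5 were BNIP3P41 (1.10), CNTRL (1.02), FBXL13 (0.99), MIR3681HG (0.94) and PECAM1 (0.92), the last the adhesion molecule CD31. Of the 22 called regions 9 lay at transcript ends, 7 of them lower, 14 belonged to protein-coding genes, 6 to long noncoding RNA genes and 2 to pseudogenes. Of all 1837 regions, transcript ends held 22.6%, protein-coding genes 76.3%, long noncoding RNA genes 14.97% and pseudogenes 7.19%. Counts this small, which changed with the library left out, set no class or biotype apart. None of the 49 regions in genes of blood cell signalling or haematopoietic factors was called in NB4 KD, against 1.07% of all tested in either direction.

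The 2 leukaemia lines differed from each other at many of the shared regions. Between NB4 Control and K562 Control, 474 regions were called higher in NB4 (25.8%, against 15.8% of all tested) and 171 lower (9.31%, against 14.2%), and the median log2 difference was 0.25 over the regions of the selection and -0.02 over all tested. This split rested on the centring. Without it, which moved the median difference of all tested regions to -0.85, 108 were higher (all tested, 3.39%) and 831 lower (58.8%), and with the percentile of -log10 q 279 were higher (11.5%) and 400 lower (22.9%). With 3 against 2 libraries, 279 of the 645 calls were also made without centring and 362 with the percentile, 359 of them in the same direction. Without K562 Control 1, 313 were called higher (all tested, 10.4%) and 105 lower (7.9%), and without K562 Control 2, 364 higher (12%) and 113 lower (9.07%). The directions below are those of the centred log2 fold. The recovered depth was 14.8 and 19.5 M reads in K562 Control and 10.8 to 16.1 M reads in NB4 Control.

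The largest difference was in the 3′ UTR of FZD7, with folds of 31.1, 28.1 and 25.4 in NB4 Control and 4.71 and 5.13 in K562 Control (log2 difference 3.35 ± 0.21 SE, limma adjusted p = 3.99e-06). The K562 WT libraries were also low, at 7.43 and 6.72. VENTX, a homeobox factor of myeloid cells, had 22.5, 25.9 and 9.504 in NB4 Control and 4.30 and 5.05 in K562 Control (2.76 ± 0.39 SE, limma adjusted p = 0.000339). In the other direction, an intron of ELAVL1, the gene of the RNA-binding protein HuR, had 3.15, 2.50 and 3.56 in NB4 Control against 23.9 and 17.8 in K562 Control (-1.93 ± 0.24 SE, limma adjusted p = 0.000138), while K562 WT had 6.65 and 5.13. Intron 5 of CBFA2T3 differed by -1.91 ± 0.30 (SE, limma adjusted p = 0.000585) and the coding exon of SPN by -1.53 ± 0.25 (SE, limma adjusted p = 0.000724).

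Within the blood gene lists the calls went both ways. Of the 31 sense regions of blood cell signalling genes, 9 were higher in NB4 Control, in ARHGAP15 (2), BCL2, CBL, CD84, DOCK8, PRKCB, PTPN7 and SELPLG, and 3 were lower, in RHOH, SPN and TEC. The PTPN7 region called lay at a promoter within intron 1, and the last exon of PTPN7 was not called (-0.51 ± 0.33 SE, limma adjusted p = 0.251). The CBL region, in coding exon 11 of this ubiquitin ligase gene, had 12.4, 15.04 and 11.3 in NB4 Control and 9.97 and 7.13 in K562 Control. Of the 18 regions of haematopoietic factors 0 were higher and 4 were lower, 3 of them in CBFA2T3 and 1 in MYB. Of the 11 regions of leukaemia genes 3 were higher, in BCORL1, CBL and WT1, and 1 was lower, in SMC1A. Intron 1 of WT1 differed by 1.898 ± 0.28 (SE, limma adjusted p = 0.000431), with folds of 8.90, 6.44 and 9.42 in NB4 Control and 3.10 and 4.90 in K562 Control, yet 10.52 and 10.004 in K562 WT, above all NB4 libraries. The 3 regions of NSD1 differed by -0.46, -0.10 and -0.07, each with an SE of 0.22 to 0.25, and were not called.

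Some differences between NB4 and the K562 hairpin cells were not shared by unmodified K562 cells. In intron 3 of RGS10, a regulator of G protein signalling, the fold was 22.7, 14.6 and 15.3 in NB4 Control and 3.49 and 4.40 in K562 Control (log2 difference 2.97 ± 0.26 SE, limma adjusted p = 2.36e-05), yet 21.2 and 20.6 in K562 WT and 4.49 and 3.34 in K562 KD. An intron of a longer transcript of NDUFA10, a subunit of respiratory complex I, showed the same order: 18.0, 15.2 and 16.2 in NB4 Control, 3.53 and 4.88 in K562 Control, 5.17 and 3.84 in K562 KD and 22.7 and 24.98 in K562 WT. K562 WT lay within the range of the 6 NB4 libraries at RGS10 (14.6 to 22.7) and above it at NDUFA10 (15.2 to 21.3), and for both genes the 4 hairpin libraries of K562 stood below all others. Over the selection, both K562 WT libraries exceeded all 4 hairpin libraries by more than 1 on the centred log2 scale at 32 regions (1.74%, against 1.1% of all tested) and lay below all 4 by more than 1 at 11 (0.599%, against 0.487%). This pattern was looked for after RGS10 and NDUFA10 were seen and was not tested. The K562 WT libraries were also the deepest of that line, at 25.6 and 24.9 M recovered reads, and whether depth, the hairpin vector or a separate preparation moved with it cannot be told apart. The summits of RGS10 and NDUFA10 both lay in repeated sequence, where the place given by the aligner may be uncertain, and its part was not tested.

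**Figure D5:**
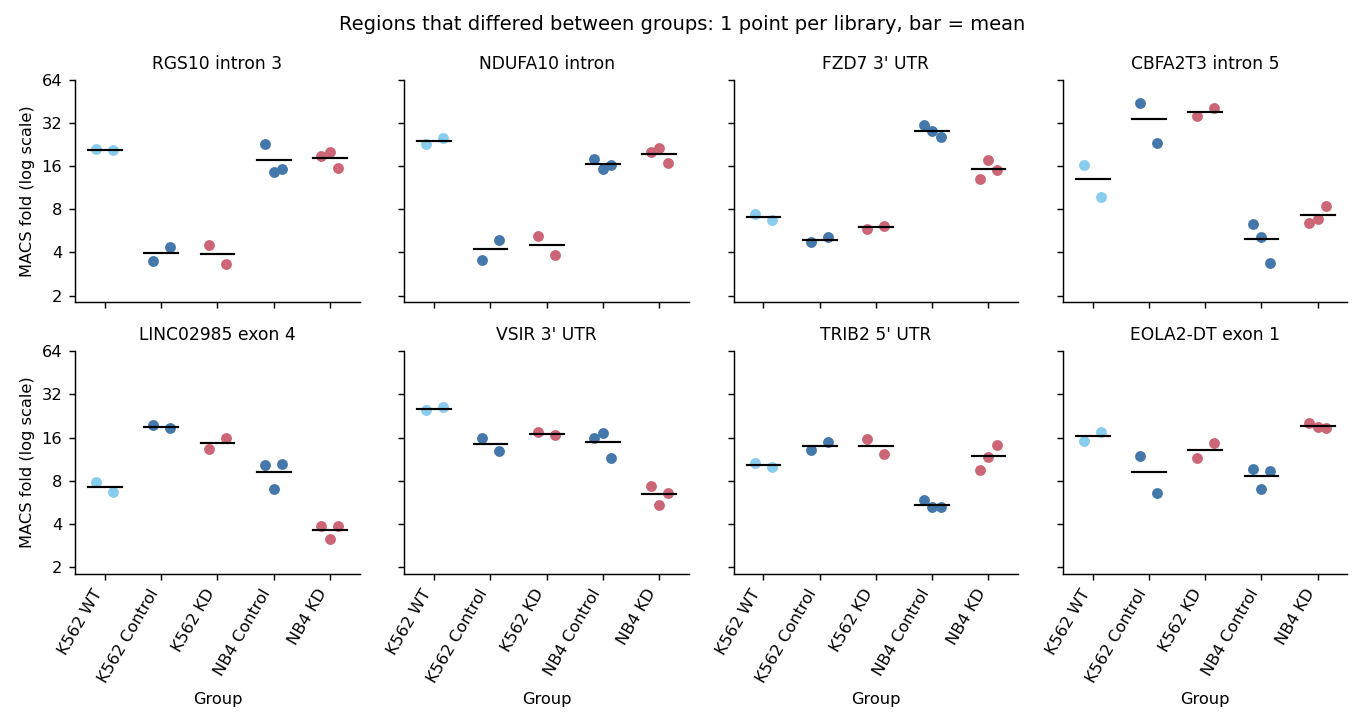
Fold of the best peak over its local background (log scale) for 8 regions in the 5 leukaemia groups, with 1 point per library and the group mean as a bar. RGS10 and NDUFA10 are low only in the K562 hairpin groups, FZD7 is high in NB4, CBFA2T3 intron 5 is high in K562, and in NB4 KD LINC02985 and VSIR are lower and TRIB2 and EOLA2-DT higher than in NB4 Control.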

How the data were processed

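MeRIP-seq peak lists of 14 immunoprecipitated libraries were analysed; the 14 input samples came with no table and are not analysed here. Per the methods and the submitters' processing notes, reads were trimmed (Trimmomatic 0.39), aligned to hg38 (HISAT2 2.1.0), split by strand (SAMtools 1.9) and called by MACS2 on each strand of each library, with reads extended to 150 bases. Replicates were not pooled. The deposited lists give the score, the fold over the local background (a ratio), the -log10 p-value and the -log10 q-value of each peak as the authors' caller wrote them; whether the input served as background is not given in the sources used here. The smallest -log10 q was 2.00.

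Peaks on chromosomes 1 to 22 and X (495694, none past a chromosome end of the hg38 reference) were merged per strand at 1 base of overlap. Of several peaks of a library in a region, the one with the highest -log10 q gave its fold. The members, the gene lists and the rule for named genes were chosen with earlier results of these data known. Named were the 12 strongest regions, the 3 strongest of each class, up to 6 of each gene list, those of the 5 genes with most regions, 5 called in each direction of a comparison and 2 at each edge. Other genes named beside small counts were chosen after their values were seen.

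Annotation was GENCODE release 44. A summit was placed as promoter, transcript end (100 bases upstream to 1000 downstream of an annotated end), exon, intron or intergenic, in that order. The strand of the peak came first only within a class, so an antisense promoter preceded a sense exon. Depth was recovered by solving the fold and p of summits for the pileup and local mean; a pileup within 0.02 of a whole number was called whole. Intervals of shares cover counting error only. The fold depends on depth and gives no methylated fraction.

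The centred log2 fold was fitted with limma 3.58.1 in R 4.3.3 over the 12 K562 and NB4 libraries in 5 groups, with no covariate; the code was tested on simulated data. Alternatives were other thresholds, overlaps, windows and strands, each library left out, quantile normalization, no centring, the percentile of -log10 q, a replicate block and filters on -log10 q. Tables were made with Python 3.11.15, pandas 2.3.3, pysam 0.24.0 and statsmodels 0.14.6.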

Additional observations from a re-analysis of the deposited data

How the results depend on the processing

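The number of regions was 1491 to 1852 under the stricter -log10 q, the 500-base margin, merged summit windows, merged strands and (added after seeing the data) removal of pseudogene regions, and 1856 to 2466 with 1 library left out of the rule. Their shares moved within the 95% interval under these settings, leaving a library out aside: with 1 library left out promoters held 20.9 to 24.7%, transcript ends 22.02 to 22.8%, exons 26.0 to 27.1%, introns 23.4 to 26.8%, GGACU 28.4 to 29.9% and DRACH 97.6 to 98.4%. Promoters of 500 bases to either side held 25.9% and then exons 22.6%. Within 50 bases of the summit GGACU stood at 21.3% and DRACH at 93.9%, the window being shorter.

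Counts of calls are given as higher and lower. In NB4 KD they were 15 and 28 with quantile normalization, 1 and 3 without centring, 113 and 36 with percentiles, and 0 to 15 and 1 to 21 with a library left out. Percentiles gave 8 and 2 for the mean of both lines and 8 lower for the difference between lines, where leaving out a library gave 0 to 1 higher (1 without NB4 Control 3). No library left out gave a call in K562 or for the mean (0 to 0). Between NB4 Control and K562 Control they were 108 and 831 without centring, 279 and 400 with percentiles, 291 higher with a mean -log10 q of at least 50 (added after seeing the data), and 313 to 487 and 105 to 182 with a library left out. The planned minimum of 10 removed no region. The cause of these shifts was not tested, except that fewer regions enter under the minimum of 50.

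With the replicate number as a block, NB4 KD had 0 and 0 calls, and NB4 Control against K562 Control 440 and 153. The numbers did not pair the libraries: deviations of same-numbered NB4 libraries correlated at -0.04, -0.01 and -0.11, and no NB4 library correlated best with its own number. The block changed no other call count by over 1.5 times. Of the 10 named regions of NB4 against K562, CBFA2T3 intron 5 lost its call with percentiles, the single loss in 160 refits, while the 10 named in NB4 KD lost theirs in 84 of 158. No named region reversed. What depth limits was not tested: the lists carry no counts, and a missing HepG2 peak is no measured absence of m6A.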

Other observations

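The regions were spread unevenly over chromosomes. Chromosome 7 held 8.66% of them against 5.86% of the regions in all 14 libraries, chromosome 11 held 7.68% against 4.83% and chromosome 12 held 6.21% against 4.74%. Chromosome 2 held 4.30% against 7.54%, and chromosome 20 held 1.47% against 3.29%. These chromosomes were picked after their shares were seen, and the shares were not tested.

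Genes outside the lists also held several of the regions. PFKP, the platelet type of phosphofructokinase, held 5 and had no HepG2 summit. The noncoding genes LINC01088 and MIR3667HG held 5 each, again without one, while LCORL, with 5, had 3 and 2 HepG2 summits at other places. An intron of P2RX1, an ATP-gated channel of platelets and blood cells, ranked among the 3 strongest intronic regions, with folds of 8.51 to 31.6 in K562 and 4.87 to 12.8 in NB4.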
